A study of Mus musculus with 12 samples.

Results

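Axon guidance genes encode secreted and membrane-bound cues and the receptors that read them. Mouse protein-coding genes of the class 3 to 7 semaphorins, plexins, neuropilins, ephrins, Eph receptors, Slits, Robos, netrins and Unc5 receptors were taken by symbol. A gene was kept if it reached 0.5 CPM (a count scaled to the library total) in at least 1 of 12 RNA-seq libraries. Of 66 matching genes 60 were kept, 31 ligands and 29 receptors, out of 18648 genes tested. Epha6, Epha10, Ntn5, Robo3, Slit1 and Unc5d stayed below the minimum. Robo3 came nearest from below with a highest value of 0.414 CPM, and Sema4g was the lowest kept at 0.742 CPM.

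The libraries held 4 sorted stromal populations of bone, each in 3 replicates, from male C57BL/6 wild-type mice of 8 to 10 weeks at steady state, with 2000 cells per library. Itga8+ MSCs (Itga8+Alcam+Sca-1-), Itga8- BLCs (bone lining cells, Itga8-Alcam+Sca-1-, named osteoblasts in the labels) and Sca-1+ MSCs (Alcam-Sca-1+) were released with collagenase from flushed fragments of femora, tibias and iliac bones. CD51+CD140a+ MSCs came from the flushed marrow of femora and tibias after Accumax digestion. All were sorted without CD45, Ter119 and CD31, markers of blood cells, erythroid cells and endothelium. Population and isolation method cannot be told apart in any comparison with CD51+CD140a+ MSCs. The labels do not say whether replicates came from separate mice, so p-values measure the spread between these libraries, which may be technical. In sorted bulk RNA, fewer cells of a type and less RNA per cell cannot be told apart.

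Class 3 semaphorins are secreted and act through neuropilins, which bind the ligand, and plexins, which carry the signal. Slits act through Robo receptors. Netrins act through Dcc, neogenin and the repulsive Unc5 receptors. Ephrins are held in the membrane and signal to Eph receptors on touching cells, with signals running in both directions. In bone, semaphorin 3A is known to restrain osteoclasts, semaphorin 4D from osteoclasts to restrain osteoblasts, and ephrin-B2 with EphB4 to act between both cell types. Slit and netrin proteins are also known in vessels and in the niches of blood stem cells.

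Library totals ran from 17580677 to 31332475 counts. The genes were tested in 1 fit over all libraries (edgeR quasi-likelihood test), and a gene was called at a Benjamini-Hochberg adjusted p under 0.1 with over 2-fold difference. Where leaving out 1 library moved the fold of a called gene by over 1.5 times, the log2 difference without it follows the adjusted p. Levels below are CPM scaled by TMM (trimmed mean of M values), listed for replicates 1 to 3, and levels of different genes are set side by side only in TPM, which divides by gene length. Replicates were less alike in the Itga8-defined populations: the correlation of log2 CPM over all genes was 0.861 to 0.961 in Itga8+ MSCs and 0.922 to 0.959 in Itga8- BLCs, against 0.976 to 0.986 in the other populations. Itga8+ MSC replicate 2 was the lowest of its population for 53 of the 60 genes (41.7% of all genes), and Itga8+ MSC replicate 3 the highest for 46 (35.4%). Itga8- BLC replicate 2 was the highest of its population for 50 (39.4%). The summed level of 10 cartilage genes moved the same way, at 88657, 29546 and 136201 CPM in Itga8+ MSCs and 54933, 90895 and 21441 CPM in Itga8- BLCs. Pericyte and smooth muscle markers (8 genes) were also highest in Itga8+ MSC replicate 3 and Itga8- BLC replicate 2, at 182, 299 and 594 CPM in Itga8+ MSCs and 135, 589.5 and 181 CPM in Itga8- BLCs, as did tendon fibroblast markers (8 genes), at 15435, 15993 and 27447 CPM and 7003, 9659 and 5797 CPM, with 5 of these 8 called higher in Itga8+ MSCs. The part of these cells in the results was not tested. No cartilage gene was at 3 counts or fewer throughout, and none of the 10 was called between these populations.

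Of the sort genes, Alcam and Itga8 are given first, with Ly6a in its own population alone. The genes of CD51 and CD140a are not given here. Alcam was low throughout, at 1.29, 5.04 and 2.71 CPM in Itga8+ MSCs and 3.83, 5.1 and 5.81 CPM in Itga8- BLCs, and at most 0.221 CPM elsewhere. Ly6a, which encodes Sca-1, stood at 658, 637 and 611 CPM in Sca-1+ MSCs. Itga8 stood at 73.5, 35.2 and 199 CPM in Itga8+ MSCs and 0.398, 4.17 and 0.659 CPM in Itga8- BLCs, and also at 57, 82.9 and 53.1 CPM in CD51+CD140a+ MSCs. Osteoblast markers summed to 85089, 115855 and 37581 CPM in Itga8- BLCs against 7276, 806 and 8211 CPM in Itga8+ MSCs, with 10 of 10 called lower in the latter. Markers of LepR+ stroma summed to 64998, 55651 and 73094 CPM in CD51+CD140a+ MSCs. Myeloid and lymphoid markers were not absent, at 5688, 11838 and 2310.2 CPM in Itga8+ MSCs and 6502, 4536 and 4339.7 CPM in Itga8- BLCs, against 883 to 1729 CPM in the others. Erythroid markers summed to 158, 1598 and 125 CPM in Itga8+ MSCs, with replicate 2 apart, and to 153 to 434 CPM elsewhere. Osteoclast markers summed to 203, 642 and 333 CPM in Itga8+ MSCs and 307, 326 and 844 CPM in Itga8- BLCs, with Itga8+ MSC replicate 2 and Itga8- BLC replicate 3 apart, and to 149 to 329 CPM in the others. Cell cycle genes summed to 668 to 863 CPM in Itga8+ MSCs and 230.1 to 539 CPM elsewhere. Immediate early and stress genes summed to 19669 to 26364 CPM in CD51+CD140a+ MSCs and 9699 to 13685 CPM in the other populations. The part of these genes in the results was not tested.

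**Figure D1:**
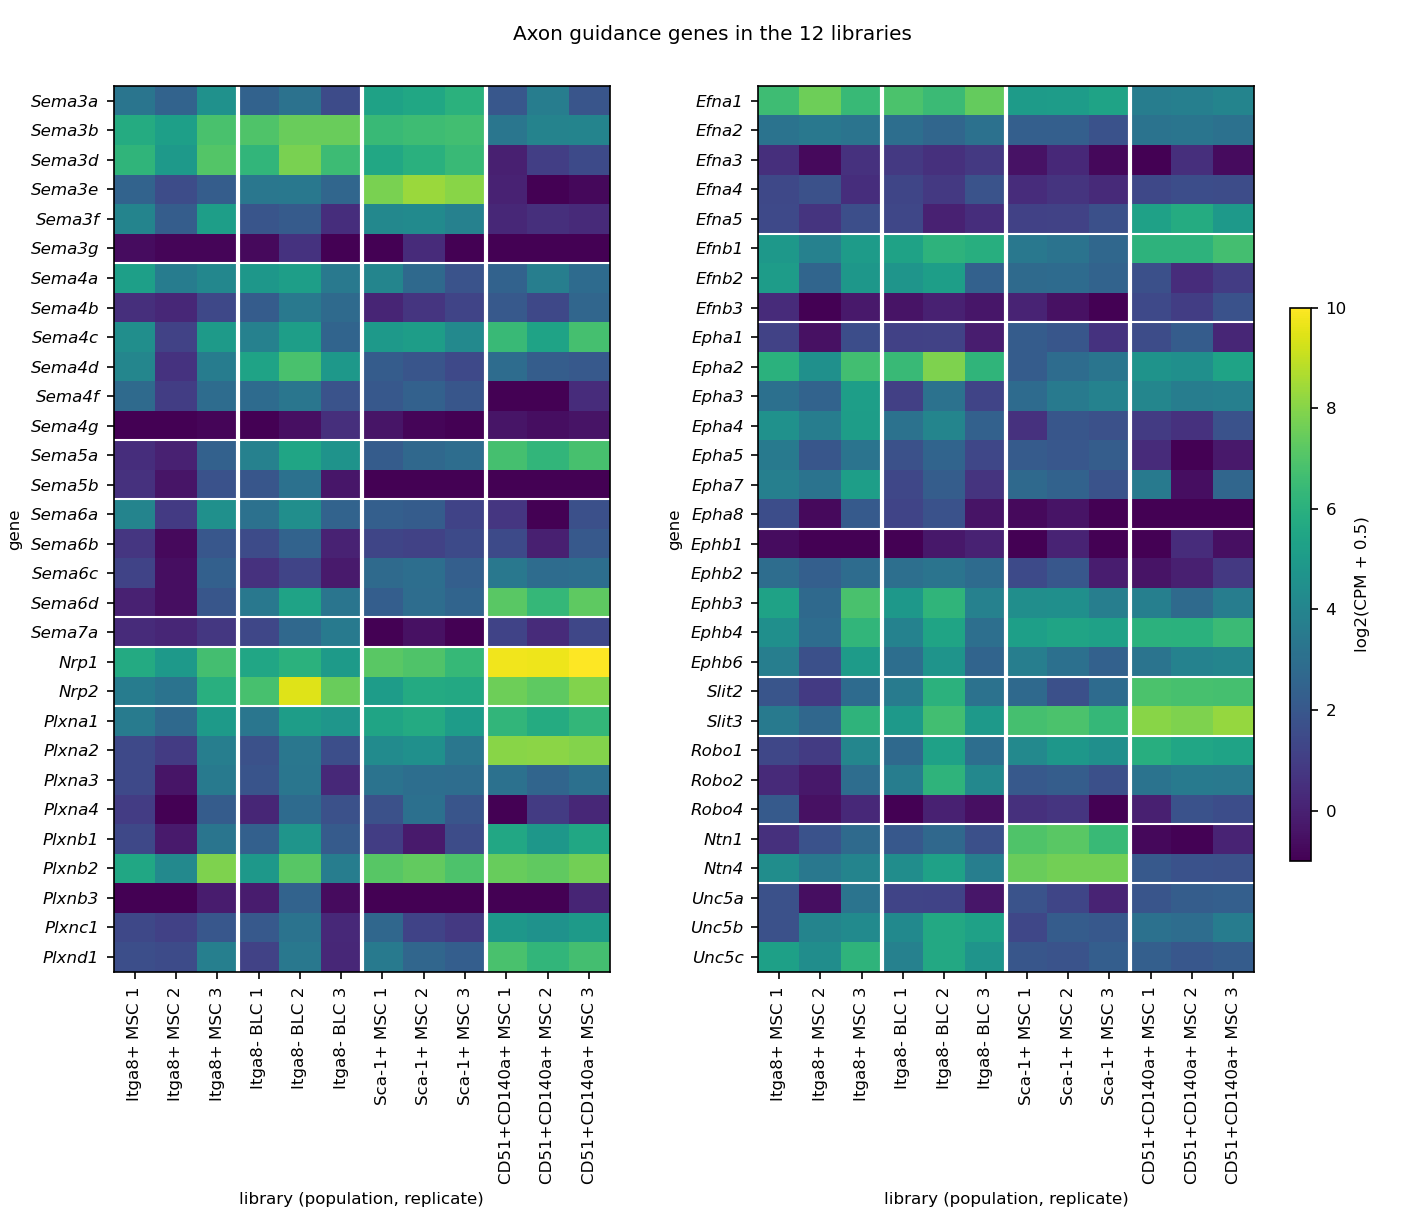
Level of each of the 60 axon guidance genes (rows, log2 of CPM + 0.5) in each of the 12 libraries (columns, population and replicate), with white lines between populations and gene families. Bright blocks stand in CD51+CD140a+ MSCs for Nrp1, Plxna2 and Slit3, and in Sca-1+ MSCs for Sema3e, Ntn1 and Ntn4.

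Over all 4 populations 39 of the 60 genes differed by the joint test and reached the fold threshold, against 45.6% of all genes. CD51+CD140a+ MSCs held the highest mean for 22 of the 60 genes (36.7%, against 29.4% of all genes), Itga8- BLCs for 19 (31.7%, against 22.1%), Itga8+ MSCs for 12 (20%, against 27.5%) and Sca-1+ MSCs for 7 (11.7%, against 20.9%). In 8 genes (Efna5, Nrp1, Plxna2, Plxnc1, Plxnd1, Sema5a, Sema6d and Slit2) all CD51+CD140a+ libraries lay above all others and the 3 comparisons were called. The same held for 4 genes in Sca-1+ MSCs (Ntn1, Ntn4, Sema3a and Sema3e). Sema3a, Sema5a, Sema6d and Slit2 lost 1 of these calls without some single library, as given with each gene. No gene met this in Itga8+ MSCs or Itga8- BLCs. Over all genes the shares separated and called in this way were 5.06% for CD51+CD140a+ MSCs, 2.73% for Sca-1+ MSCs, 0.493% for Itga8+ MSCs and 1.08% for Itga8- BLCs.

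Itga8+ MSCs and Itga8- BLCs had the fewest calls. There 7 of 60 genes were called (11.7%, against 3.82% of all genes), 1 higher (all genes 1.66%) and 6 lower (2.16%) in Itga8+ MSCs, and Sema5a alone was called without each library in turn. The count fell to 1 without Itga8+ MSC replicate 1, to 2 without Itga8- BLC replicate 2 and to 4 without Itga8- BLC replicate 3 or Sca-1+ MSC replicate 1. In a fit with the replicate number as a block it was 3, and in a fit of the 2 populations alone 0 (12 at an unadjusted p under 0.05 by edgeR, and 12 called by DESeq2 over all libraries). Between Itga8+ and Sca-1+ MSCs 14 genes were called (23.3%, against 21.7% of all genes), 10 higher (all genes 12.9%) and 4 lower (8.89%) in Itga8+ MSCs. That count was 26 without Itga8+ MSC replicate 3, with 9 higher and 17 lower, and 9 without Sca-1+ MSC replicate 3. Between Itga8+ and CD51+CD140a+ MSCs 33 were called (55%, against 35.6%), 17 higher (21.2%) and 16 lower (14.3%) in Itga8+ MSCs.

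Itga8- BLCs differed from Sca-1+ MSCs in 26 genes (43.3%, against 26.4% of all genes), with 19 higher (14.5%) and 7 lower (11.9%) in Itga8- BLCs, and in 17 without Sca-1+ MSC replicate 1. Without Itga8- BLC replicate 2 the split was 11 higher and 12 lower. They differed from CD51+CD140a+ MSCs in 36 (60%, against 35.3%), with 22 higher (20.4%) and 14 lower (14.9%), or 19 and 19 when scaled by library totals alone. There were 20 higher and 6 lower without Itga8- BLC replicate 1, 17 and 18 without replicate 2, and 22 and 6 without replicate 3, while leaving out CD51+CD140a+ MSC replicate 1 gave 17 and 8 and replicate 3 gave 19 and 8. Sca-1+ and CD51+CD140a+ MSCs differed in 27 (45%, against 20.5%), 10 higher (11.2%) and 17 lower (9.3%) in Sca-1+ MSCs. Of 31 ligands 9 were higher and 10 lower in Sca-1+ MSCs, and of 29 receptors 1 was higher and 7 lower; the difference between the classes was not tested. The 6 comparisons share libraries, and of their 143 calls 96 were kept without any 1 library.

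The median log2 difference over the 60 genes was 0.65 for Itga8- BLCs over Sca-1+ MSCs (0.12 over all genes tested; 0.22 without Itga8- BLC replicate 2) and -0.63 for Sca-1+ over CD51+CD140a+ MSCs (-0.0025); the latter was -0.52 when folds against the floor were entered as bounds and -0.39 without Sca-1+ MSC replicate 3. It was 0.46 for Itga8- BLCs over CD51+CD140a+ MSCs (0.091), and -0.043 without Itga8- BLC replicate 2. For Itga8+ MSCs the medians were -0.30 over Itga8- BLCs (0.084), 0.066 over Sca-1+ MSCs (0.16) and -0.15 over CD51+CD140a+ MSCs (0.18). Without Itga8+ MSC replicate 3 they were -1.02, -0.68 and -0.89. Their sign rested on single libraries: 0.13 over Itga8- BLCs without Itga8- BLC replicate 2, the -0.68 over Sca-1+ MSCs just given, and 0.056, 0.16, 0.047 and 0.12 over CD51+CD140a+ MSCs without Itga8+ MSC replicate 1 or 2 or CD51+CD140a+ MSC replicate 2 or 3.

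**Figure D2:**
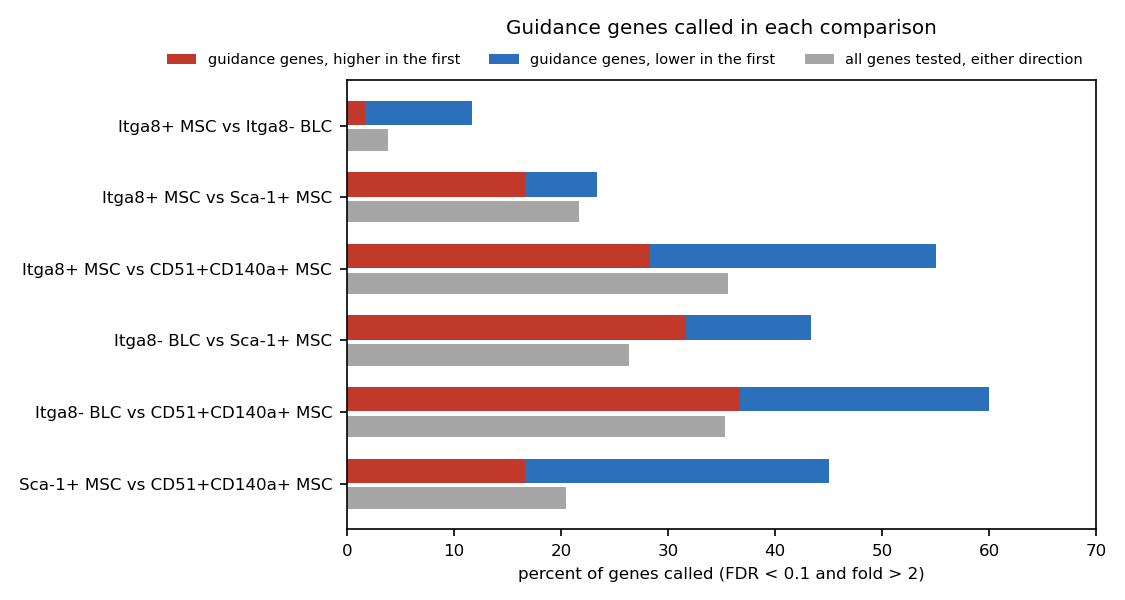
Percent of the 60 axon guidance genes called in each of the 6 comparisons (horizontal bars; red part higher and blue part lower in the first population), with the percent of all genes called in either direction in grey. The coloured bars run from 11.7% for Itga8+ MSCs against Itga8- BLCs to 60% for Itga8- BLCs against CD51+CD140a+ MSCs.

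Promoter sequence is shown for 4 ligands whose level peaked in one population, Ntn4 and Sema3e in Sca-1+ MSCs and Slit2 and Sema5a in CD51+CD140a+ MSCs, chosen after their values were seen. Each line gives the 250 bases before the RefSeq gene start (GRCm38.p6, plus strand), at chr10:93640799-93641048, chr5:14025026-14025275, chr5:47982905-47983154 and chr15:32244563-32244812. Capitals mark 4 motifs on either strand. TATAAA is a core promoter element and GGGCGG is the GC box. The palindrome CCCNNGGG is the core bound by EBF factors and can share bases with a GC box. The last motif, TGTGGT, is the core bound by RUNX factors.
Ntn4: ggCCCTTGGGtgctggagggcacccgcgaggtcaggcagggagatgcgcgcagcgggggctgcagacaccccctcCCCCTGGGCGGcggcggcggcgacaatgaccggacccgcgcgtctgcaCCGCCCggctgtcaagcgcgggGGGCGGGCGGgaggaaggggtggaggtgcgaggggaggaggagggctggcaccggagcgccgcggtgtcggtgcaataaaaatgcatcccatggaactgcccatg
Sema3e: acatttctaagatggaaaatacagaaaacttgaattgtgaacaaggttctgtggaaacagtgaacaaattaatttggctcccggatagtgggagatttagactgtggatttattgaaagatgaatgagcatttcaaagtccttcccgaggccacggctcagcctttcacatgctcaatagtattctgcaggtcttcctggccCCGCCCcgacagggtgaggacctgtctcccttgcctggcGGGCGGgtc
Slit2: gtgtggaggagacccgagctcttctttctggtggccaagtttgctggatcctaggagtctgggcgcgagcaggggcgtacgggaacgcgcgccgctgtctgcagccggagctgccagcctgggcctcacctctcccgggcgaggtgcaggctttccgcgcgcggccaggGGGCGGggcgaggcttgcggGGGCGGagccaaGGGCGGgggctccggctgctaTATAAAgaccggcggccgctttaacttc
Sema5a: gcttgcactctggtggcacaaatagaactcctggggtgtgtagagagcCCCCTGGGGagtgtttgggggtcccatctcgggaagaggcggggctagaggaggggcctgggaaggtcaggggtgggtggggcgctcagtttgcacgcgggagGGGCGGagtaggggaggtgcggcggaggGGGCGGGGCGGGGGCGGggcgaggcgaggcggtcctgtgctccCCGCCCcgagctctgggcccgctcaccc

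The Slit2 window holds TATAAA and the others do not, and the GC box occurs in all 4. Over the 69 windows matched to 53 of the 60 genes, 69.6% held the GC box, against 32.7% of 32851 windows of the same length. The latter belong to 27025 genes and were not limited to expressed genes, and a gene with several windows counts once for each. The part of expression in these differences was not tested. TATAAA stood in 2.9% against 12.4%, the EBF core in 20.3% against 11.8% and the RUNX core in 13% against 14%. Median GC content was 64.4% in these windows and 52.4% over all windows. A match is a description of the letters and not a binding site.

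Class 3 semaphorins are secreted ligands that signal through neuropilins and plexins. Against CD51+CD140a+ MSCs, 4 of 6 members were higher in Itga8+ MSCs (all genes 21.2%), 5 in Itga8- BLCs (20.4%) and 5 in Sca-1+ MSCs (11.2%), and none was lower in these 3 comparisons. Of the 5 in Itga8- BLCs, the calls of Sema3f and Sema3g were both lost without Itga8- BLC replicate 2 or any CD51+CD140a+ MSC replicate, and that of Sema3f also without Itga8- BLC replicate 1. Sema3e, a ligand that binds plexin D1 directly, stood at 224, 321 and 259.9 CPM in Sca-1+ MSCs, 5.24, 2.44 and 4.27 CPM in Itga8+ MSCs, 9.86, 10.2 and 5.69 CPM in Itga8- BLCs and 0.546, 0 and 0.0966 CPM in CD51+CD140a+ MSCs. The lowest Sca-1+ library lay above every other library. Sema3e was 67.2-fold below the Sca-1+ level in Itga8+ MSCs (log2 difference -6.07 ± 0.79, adjusted p = 0.000489) and 31.2-fold lower in Itga8- BLCs (log2 difference -4.96 ± 0.75, adjusted p = 0.000824). Its gene lies at chr5:14025276-14256689 (mm10).

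Sema3a, the osteoclast-restraining ligand of neuropilin 1, was also highest in Sca-1+ MSCs, at 39.9, 46.8 and 63.9 CPM against 9.2, 5.14 and 23 CPM in Itga8+ MSCs, 4.98, 8.29 and 2.34 CPM in Itga8- BLCs and 3.44, 12.1 and 3.19 CPM in CD51+CD140a+ MSCs. It was 8.04-fold higher than in CD51+CD140a+ MSCs (log2 difference 3.01 ± 0.69, adjusted p = 0.00952, log2 difference 3.92 without CD51+CD140a+ MSC replicate 2) and 9.62-fold lower in Itga8- BLCs than in Sca-1+ MSCs (log2 difference -3.27 ± 0.70, adjusted p = 0.00717). The call against Itga8+ MSCs (log2 difference -2.01 ± 0.67, adjusted p = 0.0623, log2 difference -2.84 without Itga8+ MSC replicate 3) was lost without Itga8+ MSC replicate 1 or 2 or without any Sca-1+ MSC replicate, with log2 differences from -2.84 to -1.66.

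Sema3d, a secreted class 3 ligand, was shared by the 3 populations from bone fragments and low in the marrow population. It stood at 73.5, 29.8 and 133 CPM in Itga8+ MSCs, 76.1, 223 and 92.4 CPM in Itga8- BLCs, 48.2, 63 and 86.1 CPM in Sca-1+ MSCs and 0.464, 1.58 and 2.25 CPM in CD51+CD140a+ MSCs. The 3 differences were 55-fold (log2 difference 5.78 ± 0.76, adjusted p = 0.000172, log2 difference 5.18 without Itga8+ MSC replicate 3), 91.3-fold (log2 difference 6.51 ± 0.78, adjusted p = 9.13e-05, log2 difference 5.87 without Itga8- BLC replicate 2) and 46-fold (log2 difference 5.52 ± 0.75, adjusted p = 0.000251). Sema3b, a ligand of neuropilin 2, stood at 54.7, 37 and 113 CPM in Itga8+ MSCs, 126, 177 and 180.0 CPM in Itga8- BLCs, 87.7, 94.8 and 101 CPM in Sca-1+ MSCs and 9.53, 14.8 and 15.2 CPM in CD51+CD140a+ MSCs. Here too the marrow libraries lay below all others, 12.2-fold for Itga8- BLCs (log2 difference 3.61 ± 0.42, adjusted p = 7.25e-05).

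Sema3f, another ligand of neuropilin 2, had a lower mean in Itga8- BLCs than in the other fragment populations, whose ranges overlapped. Its level was 15, 4.21 and 35.5 CPM in Itga8+ MSCs and 16.8, 18.7 and 14 CPM in Sca-1+ MSCs, but 3.29, 3.98 and 0.839 CPM in Itga8- BLCs and 0.683, 0.888 and 0.741 CPM in CD51+CD140a+ MSCs. It was 23.5-fold above CD51+CD140a+ MSCs in Itga8+ MSCs (log2 difference 4.55 ± 0.76, adjusted p = 0.000919, log2 difference 3.65 without Itga8+ MSC replicate 3) and 6.06-fold lower in Itga8- BLCs than in Sca-1+ MSCs (log2 difference -2.60 ± 0.69, adjusted p = 0.0201). It was the 1 gene called higher in Itga8+ MSCs than in Itga8- BLCs (log2 difference 2.74 ± 0.69, adjusted p = 0.0645, log2 difference 1.84 without Itga8+ MSC replicate 3), a call lost without Itga8+ MSC replicate 1 or 3, any Itga8- BLC replicate or Sca-1+ MSC replicate 1 or 2 (1.84 to 3.23). Sema3g stayed at or below 1.02 CPM, with CD51+CD140a+ MSCs at 0.

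Of the transmembrane classes 5 and 6, Sema5a and Sema6d were highest in CD51+CD140a+ MSCs. Sema5a, a membrane-bound ligand of plexin A receptors, stood at 107, 74.3 and 111 CPM in CD51+CD140a+ MSCs, 13.9, 43.5 and 24.9 CPM in Itga8- BLCs, 4.04, 6.1 and 7.03 CPM in Sca-1+ MSCs and 0.841, 0.519 and 4.85 CPM in Itga8+ MSCs. Every Itga8- BLC library lay above every Itga8+ MSC library. The call for Itga8- BLCs against CD51+CD140a+ MSCs (log2 difference -1.83 ± 0.67, adjusted p = 0.0575) was lost without replicate 1 or 3 of either (-2.34 to -1.52). Sema5a was 47.3-fold lower in Itga8+ than in CD51+CD140a+ MSCs (log2 difference -5.56 ± 0.80, adjusted p = 0.000324, log2 difference -7.15 without Itga8+ MSC replicate 3) and 13.3-fold lower than in Itga8- BLCs (log2 difference -3.73 ± 0.74, adjusted p = 0.0184, log2 difference -5.31 without Itga8+ MSC replicate 3). The latter call was kept without each library but not in a fit of the 2 populations alone.

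Sema6d, a ligand of plexin A1, had the same order of populations, at 145, 79.2 and 152 CPM in CD51+CD140a+ MSCs, 9.96, 40.9 and 9.23 CPM in Itga8- BLCs, 4.42, 7.02 and 5.34 CPM in Sca-1+ MSCs and 0.495, 0.156 and 3.35 CPM in Itga8+ MSCs. It was 94.9-fold lower in Itga8+ than in CD51+CD140a+ MSCs (log2 difference -6.57 ± 1.02, adjusted p = 0.00056, log2 difference -8.56 without Itga8+ MSC replicate 3) and 22.4-fold lower in Sca-1+ MSCs (log2 difference -4.49 ± 0.91, adjusted p = 0.00438). Itga8- BLCs lay below CD51+CD140a+ MSCs (log2 difference -2.65 ± 0.84, adjusted p = 0.0324, log2 difference -3.71 without Itga8- BLC replicate 2), a call lost without Itga8- BLC replicate 1 or 3 (-3.71 to -2.31). Its call between Itga8+ MSCs and Itga8- BLCs (log2 difference -3.92 ± 0.91, adjusted p = 0.044, log2 difference -5.91 without Itga8+ MSC replicate 3 and -2.84 without Itga8- BLC replicate 2) was lost without Itga8+ MSC replicate 1 or Itga8- BLC replicate 2 (-5.91 to -2.84). Sema5b was at 0 in all Sca-1+ and CD51+CD140a+ libraries. It stood at 0.989, 0.26 and 2.95 CPM in Itga8+ MSCs and 3.39, 8.01 and 0.3 CPM in Itga8- BLCs. The Itga8- BLC mean was at least 44.2-fold above the CPM that 3 counts give in CD51+CD140a+ MSCs. Without 1 library the fitted log2 difference of 9.50 became 8.42 to 10.07. Sema5b reached the minimum of 0.5 CPM only in Alcam+ libraries.

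Among class 4 and 7 members, Itga8- BLCs carried most of Sema4d, a semaphorin that signals through plexin B1, at 40.7, 113 and 28.8 CPM against 16.2, 1.04 and 12 CPM in Itga8+ MSCs, 4.15, 3.2 and 2.16 CPM in Sca-1+ MSCs and 6.83, 4.21 and 3.67 CPM in CD51+CD140a+ MSCs. All Itga8- BLC libraries lay above the rest. It was 19.2-fold higher than in Sca-1+ MSCs (log2 difference 4.26 ± 0.85, adjusted p = 0.00471, log2 difference 3.41 without Itga8- BLC replicate 2) and 12.4-fold higher than in CD51+CD140a+ MSCs (log2 difference 3.63 ± 0.82, adjusted p = 0.00618, log2 difference 2.82 without Itga8- BLC replicate 2), while the difference from Itga8+ MSCs did not pass (log2 difference -2.64 ± 0.79, adjusted p = 0.127). Sema7a, a lipid-anchored semaphorin, stood at 2.04, 6.16 and 10.7 CPM in Itga8- BLCs and 0, 0.203 and 0 CPM in Sca-1+ MSCs (log2 difference 6.43 ± 1.07, adjusted p = 0.00157, log2 difference 5.78 without Itga8- BLC replicate 3 and 10.20 without Sca-1+ MSC replicate 2). The Sca-1+ level of Sema7a rests on 4 counts in replicate 2. Sema4f stood at 6.72, 9.4 and 3 CPM in Itga8- BLCs and 0, 0 and 0.805 CPM in CD51+CD140a+ MSCs (log2 difference 4.58 ± 1.23, adjusted p = 0.0153, log2 difference 3.99 without CD51+CD140a+ MSC replicate 1 or CD51+CD140a+ MSC replicate 2 and 10.16 without CD51+CD140a+ MSC replicate 3). Its level in CD51+CD140a+ MSCs rests on replicate 3, and the call was kept without each library in turn.

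Sema4a, a membrane semaphorin known from immune cells and from blood stem cell niches, spread more evenly. It stood at 36.5, 11.9 and 16.5 CPM in Itga8+ MSCs, 28.1, 35.7 and 10.5 CPM in Itga8- BLCs, 15.7, 6.25 and 3.05 CPM in Sca-1+ MSCs and 4.97, 12.4 and 6.76 CPM in CD51+CD140a+ MSCs. Replicate ranges overlapped between neighbouring populations. Its single call (log2 difference 1.63 ± 0.66, adjusted p = 0.0829, Itga8- BLCs over CD51+CD140a+ MSCs) was lost without Itga8- BLC replicate 1 or 2, Sca-1+ MSC replicate 2 or CD51+CD140a+ MSC replicate 1 or 3 (1.27 to 2.08). Of the remaining semaphorins, Sema4c (7.27% of exon length shared with the antisense D430040D24Rik) reached 106 CPM, Sema6a 22.6, Sema4b 10.3, Sema6c 9.94, Sema6b 5.19 and Sema4g 0.899 CPM in their highest library.

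**Figure D3:**
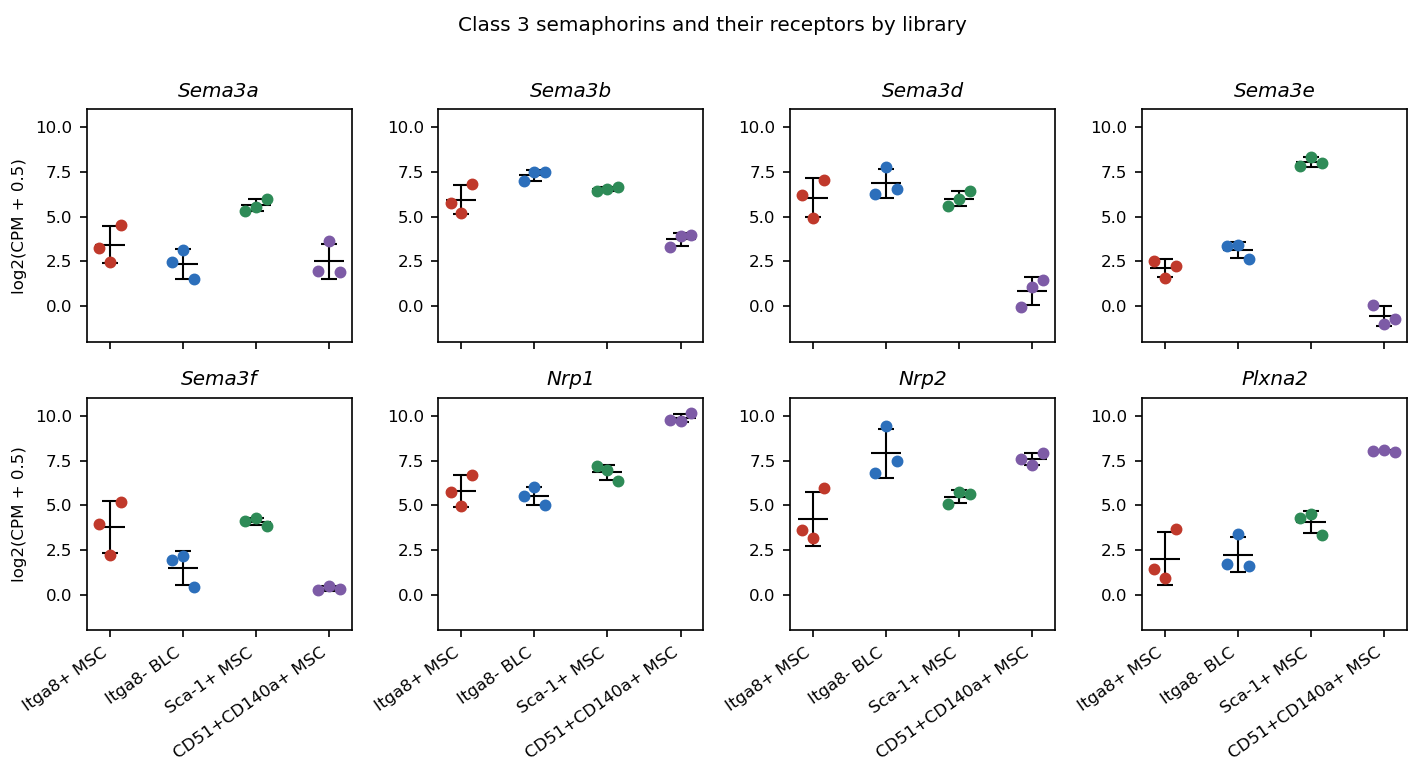
Level of 8 semaphorin, neuropilin and plexin genes by library (points, log2 of CPM + 0.5) in the 4 populations, with the mean and SD of the log2 values of 3 replicates as bars. Sema3e is high in Sca-1+ MSCs alone, whereas Nrp1 and Plxna2 are high in CD51+CD140a+ MSCs.

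Several semaphorin receptors were highest in CD51+CD140a+ MSCs. Nrp1, the co-receptor of class 3 semaphorins and of VEGF, had the highest TPM of the 60 genes there, 390.2 ± 57.8 (SD, n = 3), against 44.8 ± 12.8 in Sca-1+ MSCs. Its level was 860.2, 851 and 1146 CPM in CD51+CD140a+ MSCs, 145, 125 and 83.1 CPM in Sca-1+ MSCs, 53.2, 30.5 and 104 CPM in Itga8+ MSCs and 45.2, 64.5 and 31.5 CPM in Itga8- BLCs. The groups did not overlap between CD51+CD140a+ MSCs and any other. Nrp1 (chr8:128358604-128503363, mm10) was 20.2-fold lower in Itga8- BLCs (log2 difference -4.34 ± 0.48, adjusted p = 5.54e-05), 15.3-fold lower in Itga8+ MSCs (log2 difference -3.93 ± 0.48, adjusted p = 9.57e-05) and 8.11-fold lower in Sca-1+ MSCs (log2 difference -3.02 ± 0.46, adjusted p = 0.000555).

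Nrp2, the related co-receptor, was at 109.9, 699 and 177 CPM in Itga8- BLCs, 191, 152 and 244 CPM in CD51+CD140a+ MSCs, 33.6, 52.2 and 49.5 CPM in Sca-1+ MSCs and 11.6, 8.52 and 61.6 CPM in Itga8+ MSCs. Itga8+ MSCs lay below CD51+CD140a+ MSCs (log2 difference -2.85 ± 0.80, adjusted p = 0.0198, log2 difference -4.28 without Itga8+ MSC replicate 3). The call between Itga8+ MSCs and Itga8- BLCs (log2 difference -3.59 ± 0.83, adjusted p = 0.0424, log2 difference -5.02 without Itga8+ MSC replicate 3 and -2.37 without Itga8- BLC replicate 2) was lost without Itga8+ MSC replicate 1 or Itga8- BLC replicate 2, the library with the highest value (-5.02 to -2.37).

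Of 9 plexins, the signalling receptors, 5 were lower in Itga8+ MSCs (all genes 14.3%), 4 in Itga8- BLCs (14.9%) and 4 in Sca-1+ MSCs (9.3%) than in CD51+CD140a+ MSCs, and none was higher. Plxna2 stood at 264, 269.9 and 247 CPM in CD51+CD140a+ MSCs, 19.4, 22.6 and 9.74 CPM in Sca-1+ MSCs, 2.23, 1.4 and 12.5 CPM in Itga8+ MSCs and 2.79, 9.91 and 2.58 CPM in Itga8- BLCs. It was 50.9-fold lower in Itga8- BLCs (log2 difference -5.67 ± 0.88, adjusted p = 0.000542, log2 difference -6.60 without Itga8- BLC replicate 2) and 15.1-fold lower in Sca-1+ MSCs (log2 difference -3.92 ± 0.80, adjusted p = 0.00459) than in CD51+CD140a+ MSCs. Plxnd1, the receptor of Sema3e, was at 115, 74.9 and 105 CPM in CD51+CD140a+ MSCs and at most 13.1 CPM elsewhere (log2 difference -3.82 ± 0.94, adjusted p = 0.0135 for Sca-1+ MSCs). Ligand Sema3e and receptor Plxnd1 had their highest levels in different populations.

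Plxnc1, the receptor of Sema7a, was at 28, 24.1 and 31.5 CPM in CD51+CD140a+ MSCs and at most 8.62 CPM elsewhere (log2 difference -3.53 ± 0.79, adjusted p = 0.00612 for Itga8+ MSCs). Plxnb1, the receptor of Sema4d, was 28-fold lower in Sca-1+ MSCs (log2 difference -4.81 ± 1.14, adjusted p = 0.0109, log2 difference -5.46 without Sca-1+ MSC replicate 3), at 1.49, 0.356 and 2.48 CPM against 48, 27.5 and 46.5 CPM in CD51+CD140a+ MSCs. Plxnb2, a widely expressed plexin, had a mean of 68.4 ± 10.3 TPM in Sca-1+ MSCs and 92.3 ± 11 TPM in CD51+CD140a+ MSCs (SD, n = 3), but its level of 46.4, 17.7 and 233 CPM in Itga8+ MSCs spread across the ranges of the others and no comparison was called. Plxna1 was 4.21-fold lower in Itga8+ than in CD51+CD140a+ MSCs (log2 difference -2.08 ± 0.58, adjusted p = 0.0186, log2 difference -2.94 without Itga8+ MSC replicate 3), with 10.7% of its exon length overlapped on the other strand by Gm26811; the strand setting of the counting is not given in the sources used here, so reads of such pairs cannot be told apart. The Plxna1 call lower in Itga8- BLCs (log2 difference -1.53 ± 0.57, adjusted p = 0.0601) was lost without Itga8- BLC replicate 1 or 3 or CD51+CD140a+ MSC replicate 1 or 3 (-1.92 to -1.16). Plxna3, Plxna4 and Plxnb3 reached at most 11.1, 7.73 and 5.1 CPM.

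Slit2 and Slit3 had their highest level in CD51+CD140a+ MSCs. Slit2 stood at 118, 110.2 and 108 CPM there, 11.4, 66.6 and 8.33 CPM in Itga8- BLCs, 6.19, 2.7 and 6.61 CPM in Sca-1+ MSCs and 3.26, 1.35 and 6.76 CPM in Itga8+ MSCs. All CD51+CD140a+ libraries lay above the rest. Slit2 was 29.6-fold lower in Itga8+ MSCs (log2 difference -4.89 ± 0.85, adjusted p = 0.00129, log2 difference -5.59 without Itga8+ MSC replicate 3) and 21.7-fold lower in Sca-1+ MSCs (log2 difference -4.44 ± 0.83, adjusted p = 0.0026). For Itga8- BLCs the call (log2 difference -1.96 ± 0.75, adjusted p = 0.0666, log2 difference -3.51 without Itga8- BLC replicate 2) was lost without Itga8- BLC replicate 1 or 3 or any CD51+CD140a+ MSC replicate (-3.51 to -1.52). Its call between Itga8+ MSCs and Itga8- BLCs (log2 difference -2.93 ± 0.79, adjusted p = 0.084, log2 difference -3.63 without Itga8+ MSC replicate 3 and -1.37 without Itga8- BLC replicate 2) was kept only without Itga8+ MSC replicate 3 or Itga8- BLC replicate 1 or 3 (-3.63 to -1.37).

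Slit3, a Slit known for its effect on bone vessels, had a mean of 178 ± 23.4 TPM (SD, n = 3) in CD51+CD140a+ MSCs. It stood at 264, 237 and 305 CPM there, 107, 116 and 79.3 CPM in Sca-1+ MSCs, 29.3, 102 and 30.03 CPM in Itga8- BLCs and 11.2, 5.87 and 71.2 CPM in Itga8+ MSCs, 9.14-fold lower in the last (log2 difference -3.19 ± 0.82, adjusted p = 0.0123, log2 difference -4.97 without Itga8+ MSC replicate 3). The call for Itga8- BLCs (log2 difference -2.32 ± 0.79, adjusted p = 0.0431, log2 difference -3.19 without Itga8- BLC replicate 2) was lost without Itga8- BLC replicate 1 or 3 (-3.19 to -2.03).

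Among Slit receptors, Robo1 was at 59.4, 45.2 and 40.8 CPM in CD51+CD140a+ MSCs and 2.03, 1.4 and 16 CPM in Itga8+ MSCs (log2 difference -2.91 ± 0.91, adjusted p = 0.0315, log2 difference -4.81 without Itga8+ MSC replicate 3). Robo2 was highest in Itga8- BLCs at 12.1, 70 and 17 CPM, against 0.742, 0.312 and 7.22 CPM in Itga8+ MSCs. This difference (log2 difference -3.59 ± 0.99, adjusted p = 0.0927, log2 difference -5.94 without Itga8+ MSC replicate 3 and -2.38 without Itga8- BLC replicate 2) was called in the fit of all libraries and kept only without Itga8+ MSC replicate 3 or Itga8- BLC replicate 1 (-5.94 to -2.38). Robo4, an endothelial receptor that also anchors blood stem cells, stayed at or below 3.81 CPM in all libraries and was not called in any comparison.

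Ntn1 and Ntn4 had their highest level in Sca-1+ MSCs. Ntn1, the ligand of Dcc and neogenin, stood at 127, 147 and 87.6 CPM there, 0.94, 2.91 and 6.47 CPM in Itga8+ MSCs, 3.58, 6.16 and 2.76 CPM in Itga8- BLCs and 0.0819, 0.0287 and 0.58 CPM in CD51+CD140a+ MSCs. Ntn1 was 35.1-fold lower in Itga8+ MSCs (log2 difference -5.13 ± 0.85, adjusted p = 0.00211, log2 difference -6.02 without Itga8+ MSC replicate 3) and 28.8-fold lower in Itga8- BLCs (log2 difference -4.85 ± 0.84, adjusted p = 0.00203). Ntn4, a netrin of basement membranes, stood at 179.7, 204 and 201 CPM in Sca-1+ MSCs, 20.3, 10.2 and 15 CPM in Itga8+ MSCs, 20.3, 39.3 and 12.6 CPM in Itga8- BLCs and 3.71, 2.87 and 2.8 CPM in CD51+CD140a+ MSCs. It was 62.2-fold higher in Sca-1+ than in CD51+CD140a+ MSCs (log2 difference 5.96 ± 0.48, adjusted p = 5.6e-06), and at 194 ± 10.5 TPM (SD, n = 3) it was the most abundant of the 60 genes in Sca-1+ MSCs.

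Endothelial markers (8 genes, none at 3 counts or fewer throughout) summed to 115, 84.6 and 78 CPM in Sca-1+ MSCs and to 12.5 to 38.5 CPM elsewhere. Tek made up 93.3, 60.3 and 56.2 CPM of this sum, while Pecam1 stood at 5.14, 7.58 and 3.79 CPM and Cdh5 at 1.33, 1.37 and 1.08 CPM in Sca-1+ MSCs. Schwann cell and neuron markers (12 genes, of which 2 had 3 counts or fewer in every library) summed to 918, 749 and 903 CPM in Sca-1+ MSCs and 280.5 to 602 CPM elsewhere, and their part in these results was not tested.

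Unc5c and Unc5b, repulsive netrin receptors, had their highest means in Itga8+ MSCs and Itga8- BLCs respectively. Unc5c stood at 38, 20.5 and 70.1 CPM in Itga8+ MSCs, 13.8, 48.7 and 25.2 CPM in Itga8- BLCs, 3.32, 3 and 4.36 CPM in Sca-1+ MSCs and 4.59, 3.5 and 4.09 CPM in CD51+CD140a+ MSCs. The 2 Alcam+ populations did not overlap with the 2 others. Unc5c was 12-fold higher in Itga8+ than in Sca-1+ MSCs (log2 difference 3.59 ± 0.54, adjusted p = 0.00118, log2 difference 3.00 without Itga8+ MSC replicate 3) and 7.2-fold higher in Itga8- BLCs than in CD51+CD140a+ MSCs (log2 difference 2.85 ± 0.52, adjusted p = 0.00169, log2 difference 2.25 without Itga8- BLC replicate 2). Unc5b, also known from vessels, was 10.9-fold higher in Itga8- BLCs than in Sca-1+ MSCs (log2 difference 3.45 ± 0.64, adjusted p = 0.00317), at 18.4, 49.7 and 38.2 against 2.05, 4.07 and 3.61 CPM. Unc5a reached at most 8.95 CPM.

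**Figure D4:**
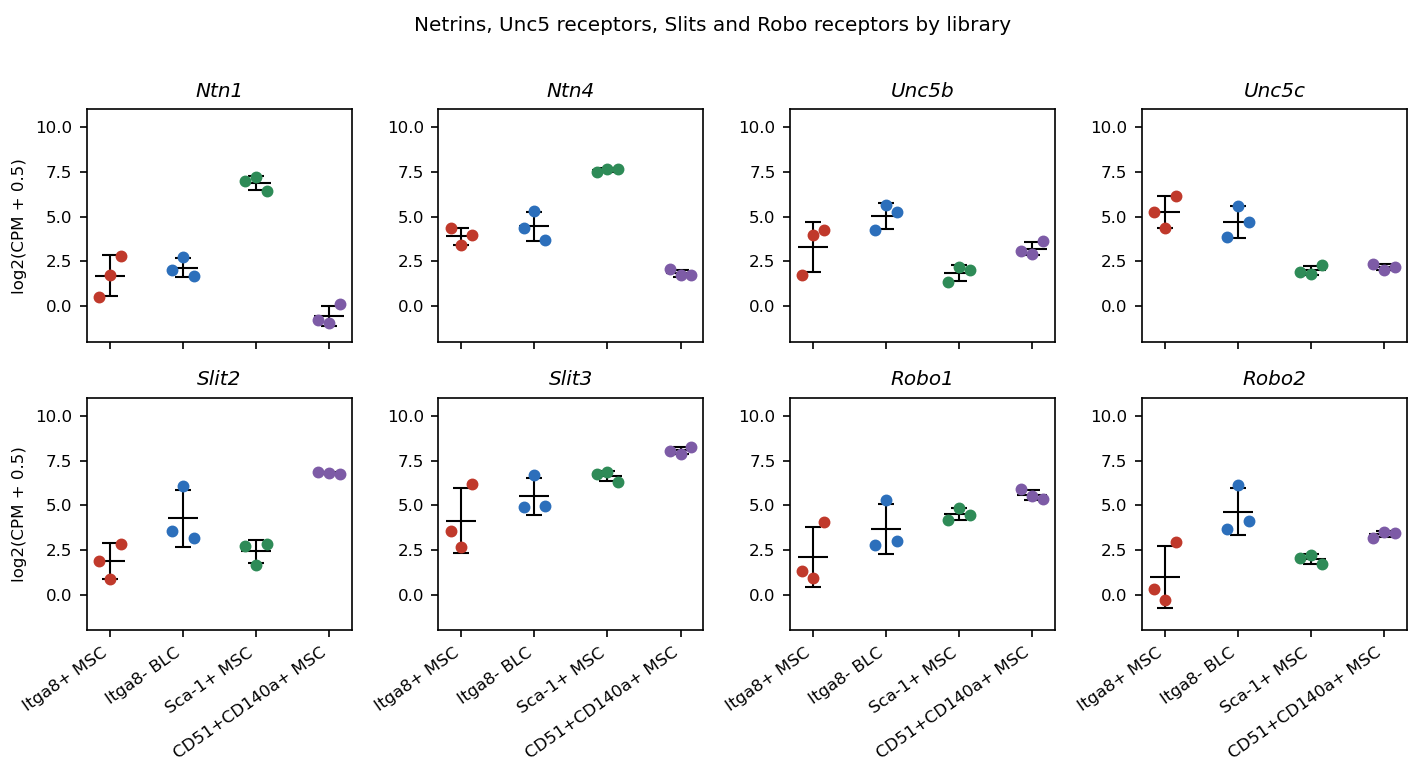
Level of the netrins, Unc5b, Unc5c, the Slits, Robo1 and Robo2 by library (points, log2 of CPM + 0.5), with the mean and SD of the log2 values of 3 replicates as bars. Ntn1 and Ntn4 peak in Sca-1+ MSCs, Slit2 and Slit3 in CD51+CD140a+ MSCs, and Unc5c in the Alcam+ populations.

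Ephrins, the membrane-bound ligands, divided by member. Efna1 was the most abundant of the 60 genes in both Alcam+ populations, at 209 ± 42.5 TPM in Itga8+ MSCs and 194 ± 29.9 TPM in Itga8- BLCs (SD, n = 3). Its level was 95.2, 188 and 83.9 CPM in Itga8+ MSCs, 117, 88.8 and 168 CPM in Itga8- BLCs, 32.1, 32.9 and 40.7 CPM in Sca-1+ MSCs and 12.1, 12.8 and 15.1 CPM in CD51+CD140a+ MSCs. The Alcam+ libraries all lay above the Sca-1+ libraries, which all lay above the CD51+CD140a+ libraries. Efna1 was 9.16-fold higher in Itga8+ (log2 difference 3.20 ± 0.37, adjusted p = 7.63e-05) and 2.64-fold higher in Sca-1+ MSCs (log2 difference 1.40 ± 0.35, adjusted p = 0.0154) than in CD51+CD140a+ MSCs.

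Efna5, another ligand of EphA receptors, was high in CD51+CD140a+ MSCs, at 39.1, 54.6 and 29.6 CPM and at most 2.72 CPM in all other libraries. It was 36.2-fold lower in Itga8- BLCs (log2 difference -5.18 ± 0.58, adjusted p = 5.87e-05, log2 difference -5.94 without Itga8- BLC replicate 1), 20.6-fold lower in Itga8+ MSCs (log2 difference -4.37 ± 0.56, adjusted p = 0.000143) and 19.9-fold lower in Sca-1+ MSCs (log2 difference -4.32 ± 0.56, adjusted p = 0.000169). CD51+CD140a+ MSCs had the lowest mean of Efna1 and the highest of Efna5. Efna2 ran from 2.95 to 10.02 CPM. It was called higher in Itga8+ than in Sca-1+ MSCs (log2 difference 1.18) and lower in Sca-1+ than in CD51+CD140a+ MSCs (-1.10). Both calls were lost without Sca-1+ MSC replicate 3. Efna3 and Efna4 stayed at or below 1.29 and 3.06 CPM, with 14.1% and 10.5% of exon length overlapped by antisense genes.

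Efnb2, the ephrin that couples osteoclasts and osteoblasts, was at 33.6, 5.5 and 27.9 CPM in Itga8+ MSCs, 26.1, 35.2 and 4.79 CPM in Itga8- BLCs, 6.47, 6.66 and 5.15 CPM in Sca-1+ MSCs and 2.73, 0.802 and 1.42 CPM in CD51+CD140a+ MSCs. It was 13.5-fold higher in Itga8+ MSCs (log2 difference 3.75 ± 0.81, adjusted p = 0.00478) and 13.3-fold higher in Itga8- BLCs (log2 difference 3.73 ± 0.81, adjusted p = 0.00468) than in CD51+CD140a+ MSCs. Ephb4, its receptor, had its highest mean in CD51+CD140a+ MSCs, at 21.7, 6.91 and 75 CPM in Itga8+ MSCs, 14.3, 42.7 and 7.55 CPM in Itga8- BLCs, 36.7, 42.1 and 38.3 CPM in Sca-1+ MSCs and 67.4, 64 and 90.7 CPM in CD51+CD140a+ MSCs. Its one call, for Itga8- BLCs against CD51+CD140a+ MSCs (log2 difference -1.78 ± 0.75, adjusted p = 0.0907, log2 difference -2.76 without Itga8- BLC replicate 2), was kept only without Itga8+ MSC replicate 2 or 3 or Itga8- BLC replicate 2 (-2.76 to -1.38).

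Efnb1 was lowest in Sca-1+ MSCs, 9.89-fold below CD51+CD140a+ MSCs (log2 difference -3.31 ± 0.41, adjusted p = 0.000123), and in Itga8- BLCs it was 6.74-fold above Sca-1+ MSCs (log2 difference 2.75 ± 0.40, adjusted p = 0.00066). Efnb3 stayed at or below 2.93 CPM.

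Of 7 EphA receptors 3 were higher in Itga8+ MSCs in the comparison with Sca-1+ MSCs (all genes 12.9%) and 3 in that with CD51+CD140a+ MSCs (21.2%), with none lower. Of the former, the Epha8 call was lost without Itga8+ MSC replicate 1 or 3, Itga8- BLC replicate 1 or any Sca-1+ MSC replicate (3.38 to 5.23). Epha2, a receptor of Efna1, stood at 65.3, 22.5 and 101 CPM in Itga8+ MSCs, 86.6, 233 and 72.8 CPM in Itga8- BLCs, 4.15, 6.97 and 9.14 CPM in Sca-1+ MSCs and 24.3, 22 and 40.6 CPM in CD51+CD140a+ MSCs. It was 9.32-fold higher in Itga8+ MSCs (log2 difference 3.22 ± 0.62, adjusted p = 0.00491) and 19.3-fold higher in Itga8- BLCs (log2 difference 4.27 ± 0.65, adjusted p = 0.000845, log2 difference 3.52 without Itga8- BLC replicate 2) than in Sca-1+ MSCs. Epha4, which binds ephrins of both classes, was at 23, 12 and 34.6 CPM in Itga8+ MSCs and 0.996, 3.36 and 2.81 CPM in Sca-1+ MSCs (log2 difference 3.28 ± 0.65, adjusted p = 0.0059). Epha5 was 20.3-fold higher in Itga8+ than in CD51+CD140a+ MSCs (log2 difference 4.34 ± 0.94, adjusted p = 0.0049, log2 difference 5.43 without CD51+CD140a+ MSC replicate 1). Ephrin Efna1 and its receptor Epha2 both had their highest means in the Alcam+ populations.

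Of the other Eph receptors, Ephb2 was 11.4-fold higher in Itga8- BLCs than in CD51+CD140a+ MSCs (log2 difference 3.51 ± 0.74, adjusted p = 0.00393, log2 difference 4.37 without CD51+CD140a+ MSC replicate 3). Epha8 was at 0 in CD51+CD140a+ MSCs and at 2.52, 0.104 and 3.87 CPM in Itga8+ MSCs, with 2 counts in replicate 2. The Itga8+ MSC mean was at least 24.6-fold above the CPM of 3 counts in CD51+CD140a+ MSCs. Without 1 library the fitted log2 difference of 8.64 became 7.97 to 9.24. Epha8 reached the minimum of 0.5 CPM only in Alcam+ libraries. Ephb3 reached 116 CPM, Epha3 35.5, Epha7 35.4 and Ephb6 32.2 CPM in Itga8+ MSC replicate 3. Epha1 and Ephb1 stayed at or below 4.04 and 0.802 CPM.

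**Figure D5:**
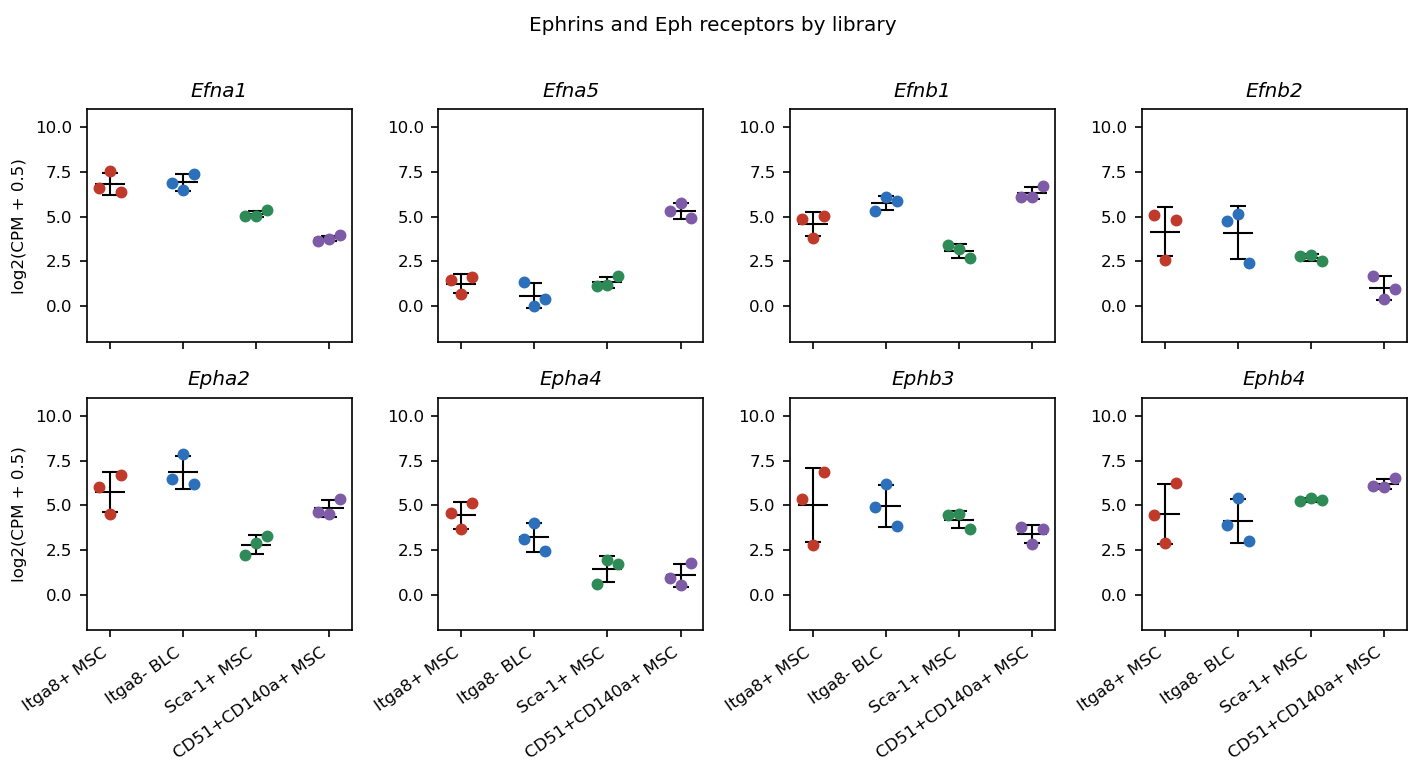
Level of 4 ephrins (top) and 4 Eph receptors (bottom) by library (points, log2 of CPM + 0.5), with the mean and SD of the log2 values of 3 replicates as bars. Efna1 falls from the Alcam+ populations to CD51+CD140a+ MSCs, Efna5 is high in CD51+CD140a+ MSCs, and Epha2 is lowest in Sca-1+ MSCs.

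Sema3d, Sema3a and Sema3e lie in that order on the plus strand of chromosome 5 (mm10), separated by 536 and 423 kb, at chr5:12383385-12588948, chr5:13125414-13602565 and chr5:14025276-14256689. Sema3a and Sema3e had their highest mean in Sca-1+ MSCs and Sema3d in Itga8- BLCs. Sema3b and Sema3f lie 72.3 kb apart on chromosome 9 and had theirs in Itga8- BLCs and Itga8+ MSCs. Robo1 and Robo2 lie 846 kb apart on chromosome 16 and had theirs in CD51+CD140a+ MSCs and Itga8- BLCs. On chromosome 3 Sema4a, Efna1 and Efna3 all had their highest mean CPM in Itga8- BLCs, and Efna4 beside them in CD51+CD140a+ MSCs. For Efna1 the order was reversed in TPM, at 209 in Itga8+ MSCs and 194 in Itga8- BLCs. The 10 pairs of neighbours within 1000 kb, a distance chosen after the data were seen, also include Ephb2 with Epha8, Ephb6 with Epha1 and Plxnb3 with Plxna3, and in 3 of the 10 both genes had their highest mean in the same population.

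Other genes of the pathways were read from 5 lists of effectors, co-receptors and further guidance cues, of which 126 of 133 genes were tested. Between Itga8+ MSCs and Itga8- BLCs 2 of the 126 were higher (all genes 1.66%) and 6 lower (2.16%) in Itga8+ MSCs. Chn1, an effector of EphA4, stood at 96.1, 120.5 and 244 CPM in Itga8- BLCs and 4.75, 9.76 and 10.3 CPM in Itga8+ MSCs (log2 difference -4.21 ± 0.71, adjusted p = 0.00733). Farp2, a plexin A effector, stood at 99.4, 203 and 112 CPM in Itga8- BLCs and 18.5, 4.93 and 20.6 CPM in Itga8+ MSCs (log2 difference -3.23 ± 0.52, adjusted p = 0.00552). The 2 higher genes were Vegfc, a lymphatic growth factor, and Ntng1, a lipid-anchored netrin relative. Vegfc was 3.78-fold higher in Itga8+ MSCs (log2 difference 1.92 ± 0.38, adjusted p = 0.0186), a call kept without each library in turn. Ntng1 stood at 2.72, 3.58 and 15.8 CPM in Itga8+ MSCs and 0.299, 0.417 and 1.08 CPM in Itga8- BLCs (log2 difference 3.62 ± 0.87, adjusted p = 0.0645, log2 difference 2.40 without Itga8+ MSC replicate 3 and 4.35 without Itga8- BLC replicate 3), a call lost without Itga8+ MSC replicate 3, any Itga8- BLC replicate or Sca-1+ MSC replicate 2 (2.40 to 4.35).

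Against CD51+CD140a+ MSCs, 31 of the 126 pathway genes were higher (all genes 21.2%) and 20 lower (14.3%) in Itga8+ MSCs, shares near those of all genes. In Itga8- BLCs 36 were higher (20.4%) and 17 lower (14.9%), and in Sca-1+ MSCs 28 were higher (11.2%) and 18 lower (9.3%). Vegfc stood at 252, 180.3 and 279 CPM in CD51+CD140a+ MSCs, 19.1, 32.3 and 23.3 CPM in Sca-1+ MSCs, 6.28, 3.63 and 7.68 CPM in Itga8+ MSCs and 1.05, 2.08 and 1.5 CPM in Itga8- BLCs (log2 difference -7.26 ± 0.47, adjusted p = 1.22e-06 for Itga8- BLCs; log2 difference -5.34 ± 0.42, adjusted p = 4.95e-06 for Itga8+ MSCs). Dapk1, a kinase downstream of Unc5 receptors, was 28-fold lower in Itga8- BLCs (log2 difference -4.80 ± 0.76, adjusted p = 0.000659, log2 difference -5.83 without Itga8- BLC replicate 2). Cntn1, an adhesion molecule of axons, was 33.7-fold lower in Itga8+ MSCs (log2 difference -5.07 ± 0.68, adjusted p = 0.000201, log2 difference -5.89 without Itga8+ MSC replicate 3). L1cam, an axonal adhesion molecule, stood at 7.42, 22.3 and 2.34 CPM in Itga8- BLCs and 0, 0 and 0.0322 CPM, 1 count in all, in CD51+CD140a+ MSCs, and was called higher in Itga8- BLCs. Dscaml1, Ntng1 and Cntn2 were at 0 in CD51+CD140a+ MSCs. The mean of Dscaml1 was at least 58.2-fold above the 3-count floor in Itga8- BLCs. In Itga8+ MSCs the mean of Ntng1 was at least 83.4-fold and that of Cntn2 at least 37.7-fold above it. Without 1 library the fitted log2 difference of Dscaml1 (9.89) became 9.14 to 10.18. That of Ntng1 (10.41) became 9.20 to 10.82 and that of Cntn2 (9.26) 6.51 to 9.80.

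Against Sca-1+ MSCs, 16 of the 126 pathway genes were higher (all genes 12.9%) and 16 lower (8.89%) in Itga8+ MSCs, and 24 were higher (14.5%) and 19 lower (11.9%) in Itga8- BLCs. Cdon, a co-receptor of hedgehog signalling, stood at 96.8, 118 and 75.2 CPM in Sca-1+ MSCs, 24.3-fold above Itga8+ MSCs (log2 difference -4.60 ± 0.99, adjusted p = 0.00903). Ablim1, an actin-binding protein, was 34.4-fold lower in Itga8- BLCs (log2 difference -5.10 ± 0.68, adjusted p = 0.000388, log2 difference -5.91 without Itga8- BLC replicate 2). Islr2, a membrane protein of axons, was at 6.14, 5.14 and 2.06 CPM in Sca-1+ MSCs and at most 0.0578 CPM, 1 count in a library, in Itga8+ MSCs and Itga8- BLCs. In the mean, Dscaml1 and Lrrc4c were at least 10.3-fold and 16.8-fold higher in Itga8+ MSCs than the 3-count floor of Sca-1+ MSCs. Dscaml1 and Mag were at least 33.5-fold and 9.76-fold above that floor in Itga8- BLCs. Without 1 library the fitted log2 difference of Lrrc4c in Itga8+ MSCs (8.89) became 8.09 to 9.23. That of Dscaml1 in Itga8- BLCs (9.89) became 9.14 to 10.18. In Sca-1+ MSCs Islr2 and Ntng1 were at least 50.4-fold and 11.5-fold above the floor of CD51+CD140a+ MSCs. Lrrc4c and Mag were at 0 in Sca-1+ MSCs, Lrrc4c at least 34.1-fold and Mag at least 17.3-fold below CD51+CD140a+ MSCs. Dcc, the attractive netrin receptor, reached at most 1.25 CPM, whereas Neo1 (neogenin) ran from 22.4 to 329.6 CPM; both were chosen after their values were seen.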

How the data were processed

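RNA was amplified with SMART-Seq v4, made into Nextera XT libraries and sequenced on an Illumina NextSeq instrument. The deposited values are raw read counts per Ensembl gene, made by the authors. The submitters' processing notes name FastQC 0.11.7, Trimmomatic 0.38, HISAT2 2.1.0, SAMtools 1.9, featureCounts 1.6.3 and mm10, whereas the study's methods name TopHat and Bowtie2. The annotation release is not given in the sources used here. Low input and amplification can enlarge the spread of weakly expressed genes.

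Symbols, exon lengths and positions came from GENCODE M21 and promoter sequences from RefSeq (GRCm38.p6). Genes that reached 0.5 CPM in any library were fitted with edgeR 4.0.16 (R 4.3.3; glmQLFit and glmQLFTest, TMM scaling), all 12 libraries in 1 model, 6 pairwise contrasts and 1 joint test, Benjamini-Hochberg adjustment over all 18648 genes. The SE of a log2 difference is its size over the square root of F. A count of 0 was bounded by 3 counts per library (0.0819 to 0.18 CPM), which covers counting error only. The fit was also run on simulated counts, drawn gene by gene without shifts shared by the genes of a library. Its outcome is not given here and does not bear on such shifts.

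Genes described singly were the 3 with the highest mean CPM in each population (a ranking that does not allow for gene length), the 3 called genes with the largest and the 3 with the smallest fold change in each comparison (at least 5 CPM in the higher population), those separated and called in all comparisons of a population, and 9 chosen by name (Sema3a, Sema4a, Sema4d, Efnb2, Ephb4, Slit2, Slit3, Robo4 and Nrp1). From the pathway lists the 2 called genes with the largest and the 2 with the smallest fold change in each comparison were named. Members outside these rules are mentioned to account for each gene, some with folds and others by their highest level alone, without a fixed rule. Not all of their calls are given. The promoter motifs were chosen after the values were seen. The members and lists were chosen with earlier results of these data known. Of the gene families, 1 gene is not reported here. Alternatives were DESeq2 1.42.0, other scaling, other filters, a stricter threshold, a replicate block, a fit of each pair alone and leaving out each library.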

Additional observations from a re-analysis of the deposited data

How the results depend on the processing

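Of the calls of single genes, 167 in all, 3034 of 3332 values under the alternatives kept their call, 298 no longer passed and none changed direction; DESeq2 gave no p for 6. The largest losses were 217 of 2004 on leaving out 1 library, 33 of 167 at an adjusted p under 0.05, 24 of 167 with the replicate block and 17 of 167 in fits of the compared populations alone. Between Itga8+ MSCs and Itga8- BLCs, 7 genes were called, 3 at an adjusted p under 0.05, 12 by DESeq2, 3 with the replicate block and 0 in a fit of that pair alone, where 12 had an unadjusted p under 0.05; leaving out 1 library gave 1 to 9. Between Itga8+ and Sca-1+ MSCs 14 were called, 23 by DESeq2 and 9 to 26 on leaving out 1 library. Leaving out 1 library gave 17 to 30 for Itga8- BLCs against Sca-1+ MSCs, 29 to 36 for Itga8+ against CD51+CD140a+ MSCs, 25 to 41 for Itga8- BLCs against CD51+CD140a+ MSCs, 22 to 30 for Sca-1+ against CD51+CD140a+ MSCs and 36 to 45 for the joint test. The median of Itga8+ over CD51+CD140a+ MSCs was 0.045 with at least 10 counts required in 3 libraries. The causes were not tested. Same-numbered libraries had correlations of their deviations from -0.70 to 0.30, and differently numbered ones from -0.42 to 0.74. With 3 libraries per population, and single libraries apart in the Itga8-defined populations, these values cannot decide whether equal numbers mark paired samples. With the replicate block the counts of the other comparisons stayed within 1.5 times. Calls of genes below a few CPM rest on few counts, and at this depth 3 counts equal 0.0819 to 0.18 CPM.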
